A study of Mus musculus with 7 samples.

Results

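The genes described here are the mouse transporters of the organic anion transporting polypeptides (Slco), the organic cation, anion and carnitine transporters (Slc22a) and 3 families of ATP-binding cassette (ABC) transporters, Abcb, Abcc and Abcg, in liver. They were chosen by symbol prefix alone, leaving out Abcb11, Abcc6 and Abcc8. This gave 63 genes of 33887 gene symbols with usable values: 15 Slco, 26 Slc22a, 8 Abcb, 8 Abcc and 6 Abcg. The Slco and Slc22a genes, 41 in all, are called the uptake families, and the 22 ABC genes the efflux families. Not every member moves drugs or organic anions: Abcb6, Abcb8 and Abcb9 act in organelles, Abcb4 moves phospholipid, Abcg1, Abcg5 and Abcg8 move sterols, Slc22a4, Slc22a5 and Slc22a21 belong to the carnitine transporter branch, and Abcc9 is a potassium channel subunit.

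Gene expression was measured by sequencing liver RNA of C57BL/6 mice in 7 libraries. Wild-type mice (WT) gave 2 libraries and SunTag-dCas9 mice (SunTag) gave 2. The other 3 libraries also came from SunTag-dCas9 mice: 1 with Myod1 activated (Myod1_active) and 2 controls (Myod1_control). The dCas9 protein is guided to DNA like Cas9 and leaves it uncut, and SunTag is a chain of peptide tags that gathers activator proteins at the bound site. Age, sex, the transgene's promoter, the method of Myod1 activation and any treatment of the controls are not stated in the sources. No label ties the numbered libraries of a group to separate mice. The p-values therefore reflect the spread among libraries alone, which may be technical. Myod1_active was a single library with no replicate check.

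Hepatocytes take up bile acids, bilirubin, steroid conjugates, drugs and hormones from the blood of the sinusoids through Slco and Slc22a proteins on the sinusoidal membrane. After metabolism, ABC proteins pump conjugates, phospholipid and sterols into bile across the canalicular membrane, or back into blood across the sinusoidal one. In mouse liver several of these genes are known to differ between the sexes under control of growth hormone secretion and sex steroids, among them Slco1a1, which is higher in males, and Slco1a4, which is higher in females.

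Expression is given as FPKM, mapped fragments scaled to transcript length and library size, which is per transcript length and can be compared between genes. Between 13133 and 13974 genes reached 1 FPKM per library, and the relative depth read from the deposited bounds lay between 0.942 and 1.09 of the mean. Myod1 was at 3.52 FPKM in Myod1_active and listed at 0 in the other 6 libraries. All 8 hepatocyte markers were present in every library. Their summed level, mostly albumin (Alb), was 66128 to 78935 FPKM in WT and SunTag and 43861 to 49986 in Myod1_active and Myod1_control, with 3 of the 8 below and 1, Cps1, above in all 3 Myod1 libraries. The 2 experiments stood apart in 2 other ways. Xist, transcribed from the inactive X chromosome of females, was at 56.9 to 82.2 FPKM in WT and SunTag and at 0.004199 to 0.324 in the 3 Myod1 libraries, and the Y-linked Eif2s3y was at 0 to 0.531 and 30.3 to 37.3. Markers of several other cell types were lower in the Myod1 experiment. Their summed levels were 190.5 to 208 FPKM in WT and SunTag against 40.1 to 59.7 for endothelial cells (8 of 9 genes below in all 3 libraries), 184 to 294 against 39.9 to 43.6 for Kupffer cells (7 of 8), 88.8 to 167 against 17.4 to 24.7 for stellate cells (6 of 7) and 2337 to 6392 against 39.9 to 45.99 for red cells (6 of 8). The red cell gene Alas2 went the other way, at 7.42 to 21.7 FPKM in WT and SunTag and 34.0 to 44.1 in the 3 Myod1 libraries. It made up most of the red cell sum there. Of the lymphocyte markers 7 of 8 were below in all 3 libraries, though the sums overlapped, at 6.75 to 11.8 against 0.682 to 7.59 FPKM. The heart and vessel muscle genes summed to 3.91 to 42.2 against 0.248 to 1.24 FPKM (5 of 11). In RNA from whole liver, fewer cells of a type and less RNA per cell cannot be told apart.

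The transporter genes covered a wide range of levels. Of the 63, 25 had a mean of at least 5 FPKM over the 7 libraries, 16 of them uptake and 9 efflux genes. A further 15 reached 1 FPKM in at least 1 library with a lower mean, and 23 stayed below 1 FPKM in every library, the highest value among these being 0.953 for Abcc1. The 40 that reached 1 FPKM were tested. Slco1b2 was the highest, with a mean of 189.9 FPKM over the 7 libraries.

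**Figure D1:**
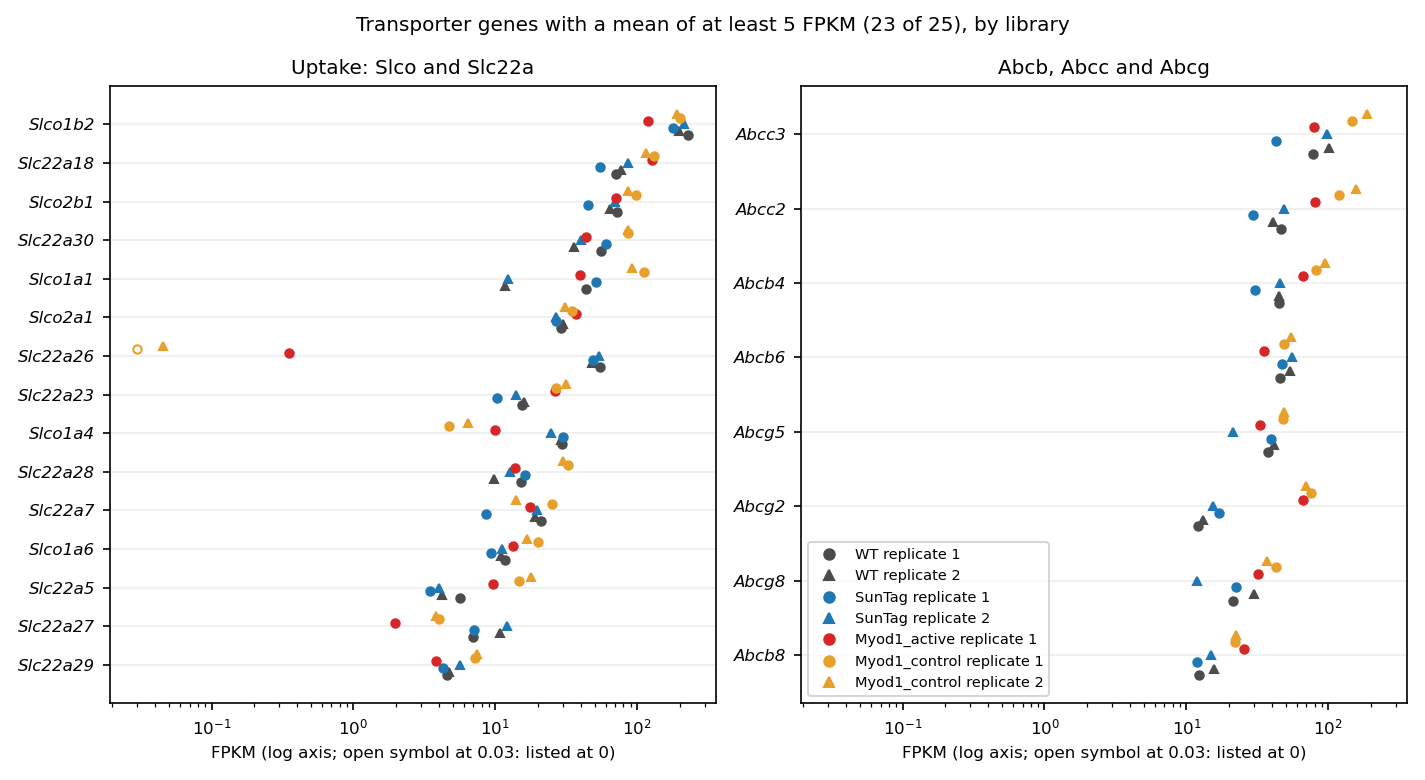
FPKM on a log axis of 23 of the 25 transporter genes with a mean of at least 5 FPKM, ordered by mean, with 1 symbol per library (circles for replicate 1, triangles for replicate 2, colours for groups). Slc22a26 spans 0.0451 to 54.5 FPKM and is listed at 0 in Myod1_control replicate 1, while Slco1b2 stays between 119.6 and 229 FPKM.

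Summed over the 41 uptake genes, expression was 821 and 744 FPKM for WT, 666 and 778 in SunTag, 689 in Myod1_active and 981 and 931 in Myod1_control. The 22 efflux genes summed to 319 and 361 FPKM for WT, 263 and 333 in SunTag, 451 in Myod1_active and 607 and 693 in Myod1_control. The WT and SunTag sums overlapped in both families, the Myod1_control sums were the highest of the 7 libraries in both, and Myod1_active lay below its controls in both. Uptake therefore summed to 2.06 to 2.57 times efflux in WT and SunTag and to 1.34 to 1.62 times in the 3 Myod1 libraries. This ratio is taken within a library, so scaling a library does not move it. For 2 against 2 libraries the smallest two-sided p of an exact permutation test is 0.333, and the sums were not tested. Abcc3, Abcc2 and Abcb4 together gave 38.8% to 63.3% of the efflux sum. Abcg2 alone went from 3.62% of the efflux sum in WT replicate 2 to 14.7% in Myod1_active.

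**Figure D2:**
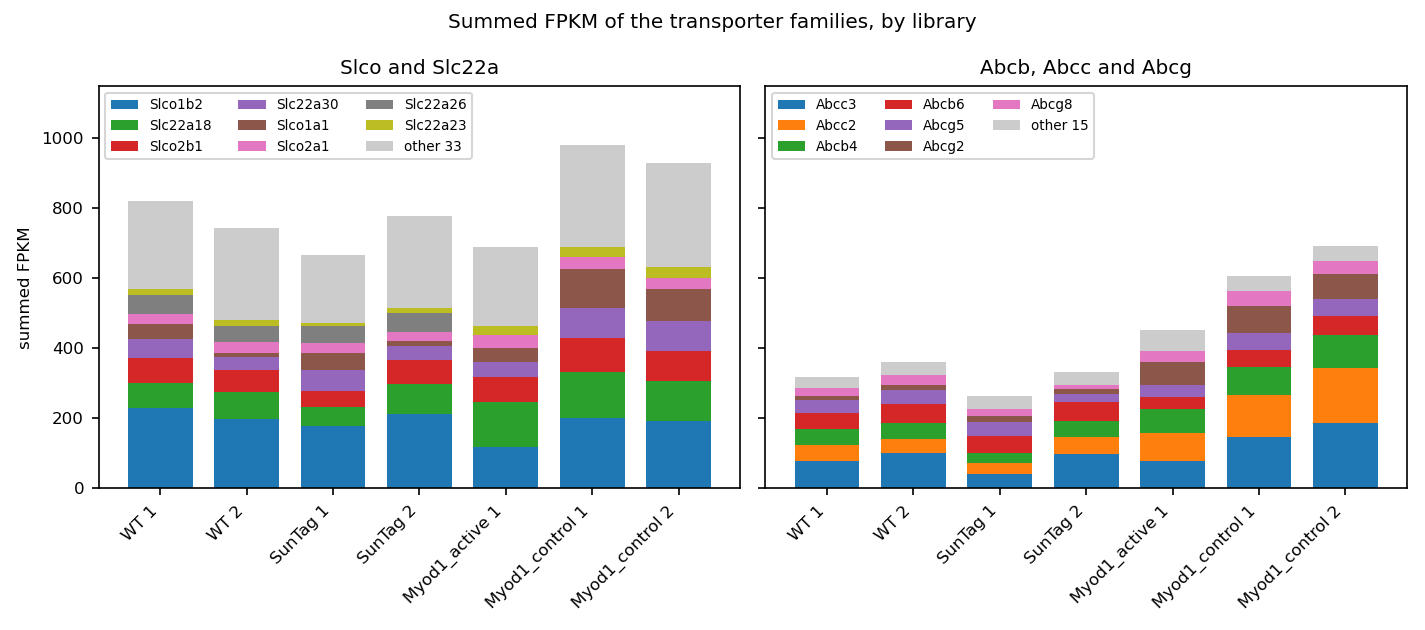
Summed FPKM of the uptake genes (left, Slco and Slc22a) and of the Abcb, Abcc and Abcg genes (right), 1 bar per library from 0, split by 8 uptake and 7 efflux genes with high means, with all other genes in light grey. The efflux bars are highest in the 2 Myod1_control libraries, 607 and 693 FPKM, and the dark grey segment of Slc22a26 in the uptake bars is seen in the WT and SunTag libraries and too thin to see in the other 3.

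Among the Slco genes, Slco1b2 had the highest level. It encodes the main bile acid and drug carrier of this family on the sinusoidal membrane of mouse hepatocytes. It was at 229 and 198 FPKM in the WT libraries, 177 and 212 in SunTag, 119.6 in Myod1_active and 201 and 192 in Myod1_control, so that Myod1_active was the lowest of the 7 libraries. Slco2b1, which carries steroid sulfates, was at 71.6 and 64.7 FPKM in the WT libraries, 44.99 and 69.6 in SunTag, 70.7 in Myod1_active and 98.2 and 85.5 in Myod1_control. The WT, SunTag and Myod1_active libraries overlapped, and both controls were above them. Slco2a1, the prostaglandin transporter, was at 28.9 and 29.9 FPKM in the WT libraries, 26.7 and 26.9 in SunTag, 37.02 in Myod1_active and 34.9 and 30.9 in Myod1_control, and the 3 Myod1 libraries were all above the other 4, by little.

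The 4 tested Slco1a genes lie next to each other on chromosome 6 and did not share one pattern. Slco1a1 (chr6:141855803-141895483 in mm9) takes up bile acids and steroid conjugates. Its level was 43.3 and 11.7 FPKM in the WT libraries, 51.2 and 12.3 in SunTag, 39.8 in Myod1_active and 111 and 91.2 in Myod1_control. In both WT and SunTag, replicate 1 was several times replicate 2, so the groups' means hide a wide spread. Slco1a4 (chr6:141753961-141804720 in mm9), a carrier of bile acids and cardiac glycosides, was at 29.5 and 29.2 FPKM in the WT libraries, 29.8 and 24.7 in SunTag, 9.94 in Myod1_active and 4.698 and 6.43 in Myod1_control. Here all 4 WT and SunTag libraries were close together and the 3 Myod1 libraries were below them, with Myod1_active between the controls and the rest. The ratio of Slco1a1 to Slco1a4 within a library thus ran from 0.400 in WT replicate 2 to 23.7 in Myod1_control replicate 1.

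Slco1a6 was at 11.8 and 11.04 FPKM in the WT libraries, 9.37 and 11.1 in SunTag, 13.3 in Myod1_active and 20.1 and 16.6 in Myod1_control, with both controls above all other libraries. Slco1a5 was low, at 0.508 and 0.3199 FPKM in the WT libraries, 0.421 and 0.217 in SunTag, 0.588 in Myod1_active and 1.44 and 1.24 in Myod1_control, in the same order. Slco3a1, a broadly expressed member of the family, was at 1.21 and 1.39 FPKM in the WT libraries, 1.304 and 1.63 in SunTag, 0.482 in Myod1_active and 2.83 and 1.96 in Myod1_control: the controls were the highest and Myod1_active the lowest. The other 7 Slco genes stayed below 1 FPKM in every library. Among these were Slco1c1, a thyroid hormone carrier of the brain that lies beside Slco1b2, at up to 0.1403 FPKM, and Slco4c1, a kidney carrier, listed at 0 in 6 libraries and at 0.118 in Myod1_active.

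Among the Slc22a genes, Slc22a18, an imprinted member of the family whose substrate is not settled, was at 70.5 and 76.9 FPKM in the WT libraries, 54.6 and 85.6 in SunTag, 128 in Myod1_active and 131 and 115 in Myod1_control, higher in all 3 Myod1 libraries than in the other 4. Slc22a23, also without a settled substrate, was at 15.4 and 16.01 FPKM in the WT libraries, 10.3 and 13.96 in SunTag, 26.2 in Myod1_active and 26.7 and 31.4 in Myod1_control, with the same split. Slc22a7, an organic anion transporter of the sinusoidal membrane, was at 21.1 and 19.2 FPKM in the WT libraries, 8.53 and 19.8 in SunTag, 17.5 in Myod1_active and 25.2 and 13.97 in Myod1_control, with no separation of the groups.

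Slc22a5 (chr11:53678044-53705162 in mm9) is the high-affinity carnitine transporter that supplies fatty acid oxidation. Its level was 5.63 and 4.23 FPKM in the WT libraries, 3.44 and 4.04 in SunTag, 9.64 in Myod1_active and 14.6 and 17.9 in Myod1_control. Both controls were above Myod1_active, and Myod1_active was above the 4 WT and SunTag libraries. Of the 50-base stretches of its coding sequence, 19.4% also occur in other genes, nearly all in its neighbour Slc22a21, which was at 0.572 to 2.09 FPKM over the 7 libraries. Slc22a4, the ergothioneine transporter beside them, was at 1.55 and 1.39 FPKM in the WT libraries, 0.822 and 1.804 in SunTag, 2.61 in Myod1_active and 0.817 and 1.81 in Myod1_control, and its groups overlapped apart from Myod1_active, which was the highest.

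A cluster of Slc22a genes of the organic anion transporter branch on chromosome 19 held the largest difference of all members. Slc22a26 (chr19:7855531-7877157 in mm9) was at 54.5 and 48.2 FPKM in the WT libraries, 48.6 and 53.8 in SunTag, 0.351 in Myod1_active and 0 and 0.0451 in Myod1_control. The 4 WT and SunTag libraries lay close together, and the 3 Myod1 libraries were near or at 0. Its neighbours differed from it. Slc22a27 was at 6.95 and 10.8 FPKM in the WT libraries, 7.096 and 12.2 in SunTag, 1.95 in Myod1_active and 4.03 and 3.798 in Myod1_control, again lower in the 3 Myod1 libraries, whereas Slc22a28 was at 15.1 and 9.86 FPKM in the WT libraries, 16.2 and 12.8 in SunTag, 13.7 in Myod1_active and 32.6 and 29.97 in Myod1_control and Slc22a30 at 55.9 and 35.98 FPKM in the WT libraries, 59.99 and 40.4 in SunTag, 43.4 in Myod1_active and 86.00 and 86.02 in Myod1_control, with both controls the highest and Myod1_active within the range of the WT and SunTag libraries. Slc22a29 was at 4.57 and 4.74 FPKM in the WT libraries, 4.29 and 5.62 in SunTag, 3.82 in Myod1_active and 7.24 and 7.41 in Myod1_control, with the controls again the highest and Myod1_active the lowest.

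**Figure D3:**
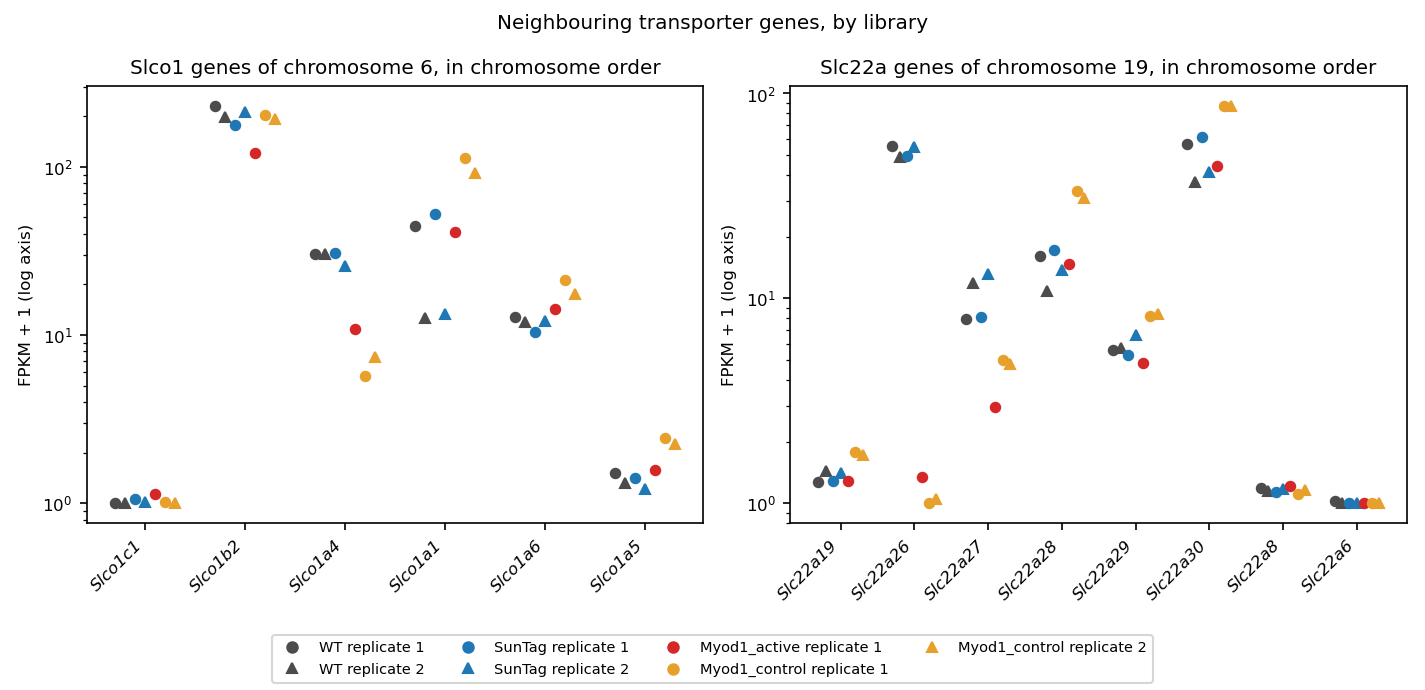
FPKM + 1 on a log axis of the neighbouring Slco1 genes of chromosome 6 (left) and Slc22a genes of chromosome 19 (right), in chromosome order, with 1 symbol per library. Slc22a26 is at 48.2 to 54.5 FPKM in the 4 WT and SunTag libraries and at 0 to 0.351 in the other 3, while the controls are the highest libraries for Slc22a28, Slc22a29 and Slc22a30.

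The bases before the start of 3 of these genes are shown, because Slc22a26 differed from its neighbours, along with those of Slco1a1 and Slco1a4, which also differed in pattern. Each is the 250 bases upstream of the RefSeq start, 5′ to 3′ on the gene's strand, the minus strand for all 5, from the RefSeq promoter table of build GRCm38.p6 (51 of the 63 genes had an entry). Capitals mark matches, on either strand, to 4 motifs that were searched: the STAT5 motif TTCNNNGAA, the HNF1 motif GTTAAT, the HNF6 core ATTGAT and the HNF4 motif CAAAGTCCA. The positions are chr19:7802668-7802917 for Slc22a26, chr19:8131983-8132232 for Slc22a28, chr19:8405106-8405355 for Slc22a30, chr6:141946963-141947212 for Slco1a1 and chr6:141856221-141856470 for Slco1a4, all on GRCm38.p6 and not on the mm9 build of the values.
Slc22a26: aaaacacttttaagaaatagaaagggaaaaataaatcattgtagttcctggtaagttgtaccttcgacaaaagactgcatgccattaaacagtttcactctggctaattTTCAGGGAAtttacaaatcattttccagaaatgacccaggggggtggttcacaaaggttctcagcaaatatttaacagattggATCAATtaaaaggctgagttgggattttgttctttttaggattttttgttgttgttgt
Slc22a28: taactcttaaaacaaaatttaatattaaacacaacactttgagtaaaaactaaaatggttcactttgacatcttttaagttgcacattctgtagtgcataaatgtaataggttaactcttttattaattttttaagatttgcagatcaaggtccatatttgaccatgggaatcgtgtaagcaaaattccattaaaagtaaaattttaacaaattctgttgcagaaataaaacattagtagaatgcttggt
Slc22a30: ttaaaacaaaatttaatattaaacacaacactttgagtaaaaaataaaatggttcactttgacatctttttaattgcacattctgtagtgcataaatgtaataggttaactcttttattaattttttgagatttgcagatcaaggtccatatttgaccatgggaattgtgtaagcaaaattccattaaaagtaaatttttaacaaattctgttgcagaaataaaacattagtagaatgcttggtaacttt
Slco1a1: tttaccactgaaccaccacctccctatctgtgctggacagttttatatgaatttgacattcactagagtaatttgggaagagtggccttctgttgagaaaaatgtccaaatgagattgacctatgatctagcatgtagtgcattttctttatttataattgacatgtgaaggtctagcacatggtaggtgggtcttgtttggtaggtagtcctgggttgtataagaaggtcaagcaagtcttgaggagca
Slco1a4: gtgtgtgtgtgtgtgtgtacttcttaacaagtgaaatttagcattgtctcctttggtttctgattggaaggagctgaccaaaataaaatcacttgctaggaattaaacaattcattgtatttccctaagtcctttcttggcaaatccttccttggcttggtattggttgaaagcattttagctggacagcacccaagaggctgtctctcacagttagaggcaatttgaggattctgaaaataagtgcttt

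Of these windows the Slc22a26 one held a STAT5 match, TTCAGGGAA at 141 to 133 bases before the start, and a match to the HNF6 core on the other strand, ATCAAT at 58 to 53 bases, which do not overlap. The other 4 windows shown held none of the 4 motifs, nor did that of Slc22a27, which says only that these letters are not in them. The window of the neighbour Slc22a29, not shown, held a match to the HNF1 motif on the other strand, ATTAAC at 29 to 24 bases. Over 32841 windows of the same length, 7.02% held the STAT5 motif, 6.72% the HNF6 core, 6.43% the HNF1 motif and 0.384% the HNF4 motif, so a match is a description and not a site. The windows of Slc22a28 and Slc22a30 were 95.2% identical, and that of Slc22a26 was 61.2% and 62.0% identical to them. Over the coding sequence Slc22a28 and Slc22a30 were 98.8% identical and Slc22a26 was 75.9% and 76.0% identical to them. Of the 50-base stretches of the coding sequence, 51.5% of Slc22a28 and 57.0% of Slc22a30 occur in another gene, against 11.6% of Slc22a26, so reads of Slc22a28 and Slc22a30 can be divided between them and their separate levels are uncertain. The same holds for Slc22a27 and Slc22a29, which were 97.3% identical over the coding sequence, with 36% and 39.8% of their 50-base stretches in another gene. Between Slco1a1 and Slco1a4 the coding sequence was 87.1% identical, and 4.43% and 5.24% of their 50-base stretches occur in another gene.

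Among the Abcc genes, Abcc3, which returns glucuronide conjugates from the hepatocyte to blood, was the highest at 78.1 and 102 FPKM in the WT libraries, 42.6 and 98.4 in SunTag, 79.7 in Myod1_active and 147 and 187 in Myod1_control. Both controls were above the other 5 libraries, and SunTag replicate 1 was the lowest. Abcc2 (chr19:43856682-43912441 in mm9), the canalicular pump for bilirubin glucuronides and other conjugates, was at 46.5 and 40.6 FPKM in the WT libraries, 29.3 and 48.95 in SunTag, 80.05 in Myod1_active and 119 and 156 in Myod1_control. All 3 Myod1 libraries were above the other 4, and the controls were above Myod1_active. Abcc10, which transports lipophilic anions and drugs, was at 3.01 and 2.81 FPKM in the WT libraries, 2.57 and 2.66 in SunTag, 7.02 in Myod1_active and 5.93 and 4.78 in Myod1_control, with the same split and Myod1_active the highest.

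Abcb4 (chr5:8893717-8959225 in mm9), the flippase that brings phosphatidylcholine into bile, was at 44.8 and 44.7 FPKM in the WT libraries, 30.2 and 45.5 in SunTag, 66.3 in Myod1_active and 82.1 and 94.9 in Myod1_control. The 3 Myod1 libraries were all above the other 4. The drug pumps Abcb1a and Abcb1b, which beside their gut and blood-brain barrier roles are found at the canalicular membrane, were low. Abcb1a was at 1.601 to 3.23 FPKM and Abcb1b at 0.579 to 1.18 FPKM over the 7 libraries. Their coding sequences are 88.7% identical, and 22.2% and 20.6% of their 50-base stretches occur in another gene. Of the organelle transporters, Abcb6, a porphyrin transporter, was at 45.4 and 53.8 FPKM in the WT libraries, 47.4 and 55.2 in SunTag, 34.96 in Myod1_active and 48.4 and 54.6 in Myod1_control, with Myod1_active the lowest. Of the 50-base stretches of the Abcb6 coding sequence, 89.2% also occur in the gene Gm29253, and the effect on its level was not tested. The mitochondrial Abcb8 was at 12.2 and 15.7 FPKM in the WT libraries, 11.9 and 14.9 in SunTag, 25.4 in Myod1_active and 21.9 and 22.3 in Myod1_control, higher in the 3 Myod1 libraries than in the other 4. Abcb9, a lysosomal peptide transporter, was at 0.975 and 1.38 FPKM in the WT libraries, 1.44 and 1.79 in SunTag, 4.93 in Myod1_active and 1.5 and 1.82 in Myod1_control, which put Myod1_active above all other libraries.

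Among the Abcg genes, Abcg2 (chr6:58534517-58642863 in mm9), a canalicular pump for urate, porphyrins and sulfate conjugates, was at 12.04 and 13.04 FPKM in the WT libraries, 16.9 and 15.5 in SunTag, 66.5 in Myod1_active and 75.9 and 69.5 in Myod1_control. The groups of the 2 experiments were far apart, and within each experiment the libraries were close. Its rodent relative Abcg3 was low, at 0.846 and 0.706 FPKM in the WT libraries, 1.68 and 0.836 in SunTag, 0.206 in Myod1_active and 0.105 and 0.177 in Myod1_control, and went the other way. Abcg5 and Abcg8 encode the 2 partners of the pump that sends sterols into bile. Abcg5 was at 37.9 and 41.8 FPKM in the WT libraries, 39.2 and 21.2 in SunTag, 33.2 in Myod1_active and 48.1 and 48.9 in Myod1_control, and Abcg8 at 21.4 and 29.7 FPKM in the WT libraries, 22.2 and 11.8 in SunTag, 31.8 in Myod1_active and 42.8 and 37.3 in Myod1_control. SunTag replicate 2 was the lowest library for both, the controls were the highest for both, and the ratio of Abcg5 to Abcg8 stayed between 1.04 and 1.80. Abcg1, a cholesterol exporter abundant in macrophages, was at 2.27 and 2.15 FPKM in the WT libraries, 2.38 and 2.04 in SunTag, 2.296 in Myod1_active and 0.829 and 1.296 in Myod1_control, lower in the controls than in the other 5 libraries.

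Abcg5 and Abcg8 are read in opposite directions from starts that are close together. The bases between the 2 RefSeq starts are shown because the lowest and the 2 highest libraries were the same for both genes. They are chr17:84683012-84683120 of GRCm38.p6, plus strand, 109 bases, and hold none of the 4 motifs named above.
Abcg5-Abcg8: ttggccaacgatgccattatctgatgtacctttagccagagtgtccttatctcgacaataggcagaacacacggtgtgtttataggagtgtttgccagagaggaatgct
In the deposited tables the 2 spans overlap (chr17:85057574-85082351 and chr17:85075642-85099673 in mm9), and the use of strand in counting is not stated in the sources, so part of the reads could have been counted for either gene.

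The other 5 tested genes with low levels were spread over the families. Slc22a2, an organic cation transporter best known from kidney, was at 1.89 to 6.34 FPKM, Slc22a3, a cation transporter of broader expression, at 0.559 to 2.18, and Slc22a15 at 0.974 to 2.07 over the 7 libraries. Abcc5, which exports cyclic nucleotides, was at 1.300 and 1.53 FPKM in the WT libraries, 1.72 and 2.02 in SunTag, 2.98 in Myod1_active and 0.697 and 1.76 in Myod1_control. Abcc9 was at 2.44 and 2.103 FPKM in the WT libraries, 3.52 and 2.203 in SunTag, 0.366 in Myod1_active and 1.51 and 0.534 in Myod1_control, lower in all 3 Myod1 libraries. Among the 23 genes below 1 FPKM in every library were the kidney transporters Slc22a6, Slc22a8 and Slc22a12, at no more than 0.0273, 0.221 and 0.137 FPKM. The exporters Abcc1 and Abcc4 were at 0.4503 to 0.953 and 0.221 to 0.5796 FPKM. Abcb5, Slc22a22, Slco6b1 and Slco6d1 were listed at 0 in all 7 libraries.

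SunTag against WT asked whether the SunTag-dCas9 background itself goes with another level of these genes. None of the 40 tested genes passed (limma on log2(FPKM + 1), adjusted p under 0.05 over all 15744 genes tested), where 0.127% of all genes did. Without adjustment 1 had p under 0.05, Abcg2, against 1.95% of all genes. The libraries of the 2 groups did not overlap for 7 of the 40, against 25.8% of all genes. Of the 7, 3 were higher in SunTag, where 13% of all genes were, and 4 lower, where 12.8% were. Neither share was above the background. Differences are on the log2(FPKM + 1) scale, with the comparison's median gene set to 0. That scale understates changes of low genes, and the SE and p belong to the differences before the median was taken off.

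Abcg2 was at 16.2 ± 0.992 FPKM in SunTag and 12.5 ± 0.707 in WT (SD, n = 2 each; log2 difference 0.33, SE 0.126, limma adjusted p = 1). The largest differences lay below WT. Abcg8 had a log2 difference of -0.62 (SE 0.334) and Abcg5 of -0.46 (SE 0.296), both with the low value in SunTag replicate 2. Slc22a7 at -0.60 (SE 0.457) and Abcc3 at -0.47 (SE 0.428) had theirs in replicate 1. Slc22a23 differed by -0.38 (SE 0.184), with both SunTag libraries below both WT libraries and replicate 1 the lower. Without SunTag replicate 1 the Abcc3 difference turned to 0.14. On the other side were Abcg3 at 0.31, Abcb9 at 0.25 and Abcc5 at 0.24. SunTag replicate 1 was the lowest of the 4 libraries for 20 of the 40 transporter genes, 50% of them, against 30.7% of all tested genes. The heart and vessel muscle genes Myh6, Myl2 and 9 others summed to 42.1 and 42.2 FPKM in the WT libraries and 9.92 and 3.91 in SunTag. Their part in the values of the transporter genes was not tested.

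Myod1_active against Myod1_control asked which of these genes differed when Myod1 was activated. None of the 40 passed, against 0.254% of all genes, and the lowest adjusted p was 0.152, for Abcb9. Without adjustment 13 had p under 0.05, against 19.5% of all genes. The Myod1_active library lay outside the range of its controls for 37 of the 40, against 78% of all genes. It was above both for 15 and below both for 22, where all genes gave 61.4% and 16.6%, counted before the median was taken off. Relative to the median gene, which was itself 0.25 higher in Myod1_active, 32 of the 40 had a negative difference, with a median of -0.48, where all tested genes give 50% and 0. By family the counts below the median gene were 7 of 8 for Slco, 13 of 15 for Slc22a, 5 of 7 for Abcb, 3 of 5 for Abcc and 4 of 5 for Abcg. With 1 library in the activated group the fit assumes that it varies like the other groups, and for 1 library against 2 the smallest two-sided p of an exact permutation test is 0.667.

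The members furthest below the controls were uptake genes and Abcc3. Slco1a1 was at 39.8 FPKM against 101 ± 14.3 (SD, n = 2; log2 difference -1.57, SE 1.06, limma adjusted p = 0.502). Slc22a28 was at 13.7 against 31.3 ± 1.84 (-1.38, SE 0.291, limma adjusted p = 0.177) and Slc22a30 at 43.4 against 86.00 and 86.02 (-1.22, SE 0.353, limma adjusted p = 0.243), a pair whose reads can be shared. Slco3a1 was at 0.482 against 2.397 ± 0.614 (-1.44, SE 0.227, limma adjusted p = 0.156), and Abcc3 at 79.7 against 167 ± 28.8 (-1.30, SE 0.524, limma adjusted p = 0.326). For each of these, Myod1_active was below both controls.

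Above the controls, Abcb9 was at 4.93 FPKM against 1.66 ± 0.226 (SD, n = 2; log2 difference 0.91, SE 0.209). Abcc5 followed at 0.63 (SE 0.321, limma adjusted p = 0.243), Slco1a4 at 0.50 (SE 0.224, limma adjusted p = 0.203), Abcg1 at 0.43 (SE 0.205, limma adjusted p = 0.203) and Slc22a4 at 0.42 (SE 0.378, limma adjusted p = 0.362). Without Myod1_control replicate 1 these 4 came to 0.27, 0.30, 0.26 and 0.10, and without replicate 2 to 0.99, 0.70, 0.61 and 0.75. Of the 24 listed regulators of hepatic transporters 0 passed and 18 lay below the median gene. Nr1i3, the receptor CAR that induces several transporters with drug exposure, was at 16.8 FPKM against 55.1 and 94.5 (limma adjusted p = 0.219), and Hnf4a, the hepatocyte nuclear receptor, at 119.6 against 150.05 and 181 (0.258). Of 15 other hepatic transport genes 0 passed and 11 lay below the median gene. All 14 listed male-biased liver genes lay below the median gene, and 0 passed. The summed hepatocyte markers were at 43861 FPKM against 48083 and 49986, with 4 of the 8 genes below both controls. Also lower were the sums for endothelial cells (40.1 against 58.8 and 59.7), stellate cells (17.4 against 24.7 and 18.2) and red cells (39.9 against 45.99 and 40.2). The red cell sum was mostly Alas2, at 34.0 against 44.1 and 38.2 FPKM, and 3 of the 8 red cell genes were below both controls. Higher were those for cholangiocytes (89.2 against 26.1 and 62.7), Kupffer cells (43.6 against 39.9 and 42.9) and lymphocytes (7.59 against 3.08 and 0.682). Their part in the differences of the transporters was not tested.

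**Figure D4:**
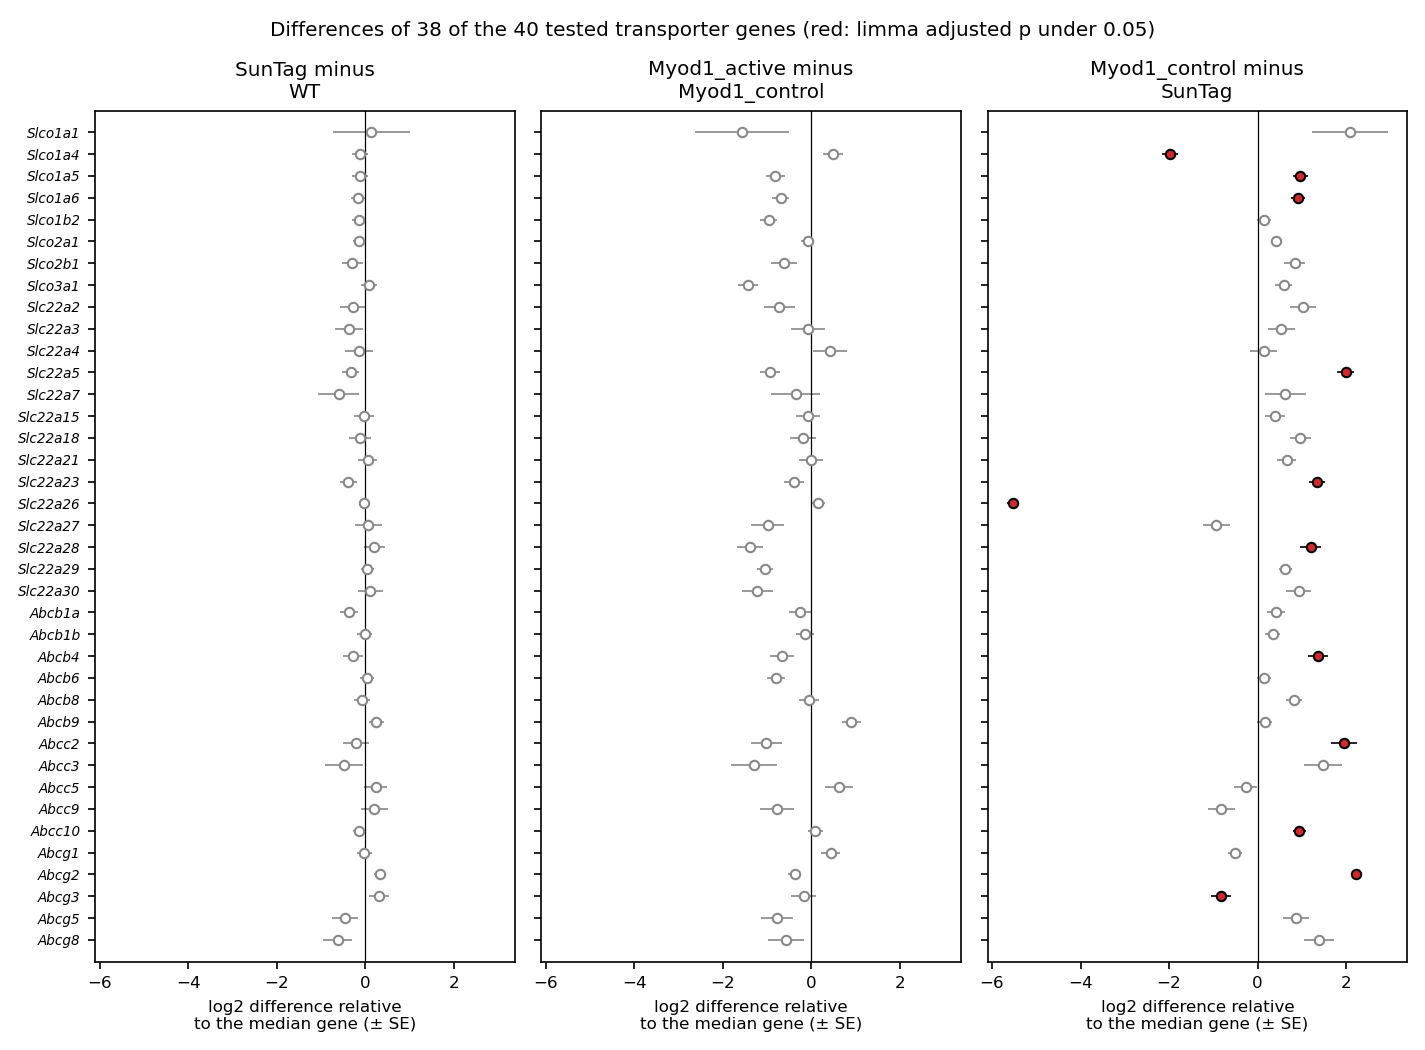
Log2 differences on the log2(FPKM + 1) scale relative to the median gene, with limma's SE as bars, of 38 of the 40 tested transporter genes (rows, by family) in the 3 comparisons (columns). Red symbols passed at an adjusted p under 0.05: none in the first 2 columns, and in the third 9 genes to the right of 0 and 3 to the left, with Slc22a26 furthest left at -5.54.

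Myod1_control against SunTag sets the controls of the 2 experiments against each other. Both came from SunTag-dCas9 mice, and the experiment, the sex shown by Xist, the other cell types' markers and any treatment of the controls cannot be told apart. Of the 40 tested genes 12 passed, against 24.3% of all genes, so that the share, 30%, was near the background. By direction, 9 were higher in Myod1_control, where 7.3% of all genes were, and 3 were lower, where 17% of all genes were. The libraries did not overlap for 31 of the 40, against 66.6% of all genes, with 25 higher, against 24.9%, and 6 lower, against 41.6%. Relative to the median gene, which was 0.14 lower in Myod1_control, 33 of the 40 had a positive difference, with a median of 0.63. Of all genes 1149 were called higher and 2683 lower, a split that quantile normalization moved to 1757 and 1764 and median-ratio scaling to 1589 and 2015. The members' 9 and 3 went to 13 and 2 and to 13 and 3. The count changed with the libraries in the fit, which also sets the residual degrees of freedom: it was 1 without WT replicate 1 or without WT replicate 2, 4 without SunTag replicate 1, 17 without SunTag replicate 2, 12 without Myod1_active, 2 without Myod1_control replicate 1 or 2, and 1 in a fit of these 2 groups alone. It was 5 with no filter on low values and 20 with genes spanning less than 300 bp left out.

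The genes that were higher included carriers on both sides of the hepatocyte. Abcg2 was at 72.7 ± 4.53 FPKM in Myod1_control against 16.2 ± 0.992 in SunTag (SD, n = 2 each), 4.48 times as high (log2 difference 2.23, SE 0.126, limma adjusted p = 0.007499). The carnitine transporter Slc22a5 was at 16.2 ± 2.33 against 3.74 ± 0.423, 4.33 times as high (1.99, SE 0.186, limma adjusted p = 0.0151). The canalicular Abcc2 was 3.52 times as high (1.96, SE 0.289, limma adjusted p = 0.0225) and Abcb4 2.34 times (1.36, SE 0.224, limma adjusted p = 0.0265). Slc22a23 was 2.398 times as high (1.34, limma adjusted p = 0.0214), Slc22a28 2.16 times (1.20, 0.0373), Slco1a6 1.798 times (0.92, 0.0299) and Abcc10 2.05 times (0.94, 0.0252). Slco1a5 passed at a low level, 1.34 ± 0.144 against 0.319 ± 0.144 FPKM (0.97, limma adjusted p = 0.0322).

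Slc22a26 was the member with the lowest adjusted p. Its values were 0 and 0.0451 FPKM in Myod1_control against 51.2 ± 3.67 (SD, n = 2) in SunTag, with a log2 difference of -5.54 (SE 0.131, limma adjusted p = 0.000673), a size that depends on the pseudocount since 1 library is listed at 0. Slco1a4 was lower at 5.56 ± 1.22 against 27.3 ± 3.59 FPKM (-1.98, SE 0.183, limma adjusted p = 0.0139), and Abcg3 at 0.141 ± 0.0509 against 1.26 ± 0.595 (-0.82, SE 0.227, limma adjusted p = 0.0422). Slc22a26 passed under all 16 other settings tried (highest adjusted p 0.0239), Abcg2 under 13 (highest 0.0559), Slco1a4 under 11 (highest 0.0698) and Slc22a5 under 10 (highest 0.0815). The other 8 passed under 6 to 9 of them. Some large differences did not pass: Slco1a1 at 101 ± 14.3 against 31.8 ± 27.5 FPKM (2.08, limma adjusted p = 0.156) and Abcc3 at 167 ± 28.8 against 70.5 ± 39.5 (1.48, 0.0782). Slc22a27 at -0.94 (limma adjusted p = 0.0629) and Abcc9 at -0.82 (0.0794) also did not pass.

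Of 14 listed male-biased liver genes 10 were higher in Myod1_control, 71.4% against 7.3% of all genes, and 0 lower. Among the 10 was Elovl3, a fatty acid elongase, at 380.1 and 287 FPKM against 0.132 and 0.181 in SunTag. Of 17 female-biased genes 11 were lower, 64.7% against 17% of all genes, and 0 higher. Among the 11 was the cytochrome P450 Cyp2b9 at 0.0811 and 0.663 against 109.8 and 237. The part of these 2 lists in the differences of the transporters was not tested. Of 24 genes listed as regulators of hepatic transporters 6 were higher, 25% against 7.3% of all genes, and 0 lower, against 17%. In either direction together the share was 25% against 24.3%. They included Ppara, the fatty acid receptor that also acts on Slc22a5 (limma adjusted p = 0.0151), and the growth hormone receptor Ghr (0.0269). The others were its signal carriers Stat5a (0.0324) and Stat5b (0.0329), the liver factor Foxa2 (0.04396) and Por (0.0284). Por is the P450 reductase, an enzyme on that list and not itself a regulator. Ppara was at 50.9 and 63.5 FPKM against 19.5 and 17.4. The xenobiotic receptors did not pass, with Nr1i2 (PXR) at 19.5 and 23.1 against 30.03 and 19.2 and Nr1i3 at 55.1 and 94.5 against 34.5 and 93.8. Of 15 other hepatic transport genes 1 was higher, 6.67% against 7.3% of all genes. It was the cholesterol exporter Abca1, at 40.5 and 54.02 against 13.01 and 16.98 FPKM. The bile acid uptake carrier Slc10a1 was at 225 and 207 against 179 and 322 and did not pass.

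Over all 7 libraries, 16 of the 40 tested transporter genes were higher in all 3 Myod1 libraries than in the 4 WT and SunTag ones, against 18.4% of all tested genes, and 5 were lower in all 3, against 23.6%. The 5 were Slc22a26, Slc22a27, Slco1a4, Abcc9 and Abcg3. Among the 16 were Abcg2, Abcc2, Abcb4, Abcg8, Slc22a5, Slc22a18, Slc22a23 and Slco1a6.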

How the data were processed

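RNA from mouse liver was measured in 7 libraries. The deposited values are FPKM per gene in 1 table of 37468 rows per library, with bounds and a status beside each value, per the file headers. Per the submitters' processing notes the authors used cutadapt 1.11, TopHat2 2.1.1 and Cufflinks 2.2.1 on mm9. Their settings, annotation, strand use and read counts are not stated there. Depth is known only as a relative value. Listed starts were raised by 1, since 97% of 3379 small RNA genes then had their annotated length.

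Rows with a status other than OK in any library (343, of them 1 member row, a second Slco6b1 entry) were left out, and rows sharing a symbol (244 symbols) were summed. Genes with at least 1 FPKM in at least 1 library, 15744, entered the limma test (version 3.58.1, R 4.3.3) on the log2(FPKM + 1) scale. All 7 libraries were fitted together with group means, a variance that follows the mean, 3 residual degrees of freedom, two-sided tests, Benjamini-Hochberg adjustment over all tested genes and a threshold of 0.05. The code was tested on simulated data. Coding identity and shared 50-base stretches come from the longest open reading frames of GENCODE M21 transcripts, and upstream sequences from RefSeq.

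The members and gene lists were chosen with earlier results of these data known. Values are given in every library for members with a mean of at least 5 FPKM, for those that passed, and for the 5 largest differences per direction in each comparison, and list genes by at most 6 each. Of the members, 2 are counted in the totals and not reported here by name. The alternatives were another pseudocount, other filters and scalings, short genes left out, a fit of the compared groups alone, a replicate block and each library left out.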

Additional observations from a re-analysis of the deposited data

How the results depend on the processing

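Over 16 other settings in SunTag against WT and 14 in Myod1_active against Myod1_control, limma called 0 of the tested transporter genes, except that with no filter on low values 3 passed in the latter, Slc22a13, Slc22a14 and Slco4c1, all below 1 FPKM in every library. In the main setting 13 had an unadjusted limma p under 0.05 in that comparison, against 19.5% of all genes. In SunTag against WT 1 had in the main setting, against 1.95% of all genes.

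Between Myod1_control and SunTag the count of 12 was 5 with no filter, 20 with genes spanning less than 300 bp left out, 1 in a fit of the 2 groups alone, and 1 to 17 with 1 library left out, the settings with fewer libraries having fewer residual degrees of freedom. A setting added after seeing the data, median-ratio scaling with the short genes left out, called 22, with all 12 among them. Quantile normalization called 15, median-ratio scaling 16, a pseudocount of 0.1 called 13 and a filter on the mean 11. The log2 difference of Abcc3 between SunTag and WT ran from -1.06 to 0.14 with 1 library left out, reversing without SunTag replicate 1, and the cause was not tested.

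With the replicate number as a block, 13 genes passed between Myod1_control and SunTag, 10 of them among the 12, and 0 between SunTag and WT. The numbers were not taken as pairs: with 2 numbers per group, deviations of same-numbered libraries correlated at 0.11 for WT and SunTag, 0.02 for WT and Myod1_control and 0.07 for SunTag and Myod1_control over 11525 genes.

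The uptake sum of Myod1_active was 611 FPKM with median-ratio scaling, and that of Myod1_control 1103 with quantile normalization and 1045 with median-ratio scaling. The efflux sum was 401 in Myod1_active with median-ratio scaling and 747 in Myod1_control with quantile normalization. Without 1 library, the group means of the uptake sum ran from 666 to 981 FPKM and those of the efflux sum from 263 to 693. Groups of 1 and 2 libraries and an unknown read depth limit the precision throughout.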

Other observations

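Some transporter genes that stayed below 1 FPKM in every library had most of their signal in 1 library, chosen here after their values were seen. Slc22a14 was at 0.606 FPKM in Myod1_active and at 0 to 0.0147 in the other 6 libraries. Abcg4, a sterol exporter of brain, was at 0.342 FPKM in Myod1_control replicate 1 and at 0.00907 to 0.0476 in the others. Slc22a12, the kidney urate transporter, was at 0.137 FPKM in Myod1_control replicate 2 and at 0 or 0.0132 in the others. Slc22a13b was at 0.202 to 0.244 FPKM in the 4 WT and SunTag libraries, at 0.130 in Myod1_active and at 0 and 0.0248 in Myod1_control.

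Slco1a1 separated replicate 1 from replicate 2 in both WT and SunTag, at 43.3 and 51.2 FPKM against 11.7 and 12.3. In the same libraries the male-biased liver gene Hsd3b5 was at 9.76 and 3.66 FPKM against 1.08 and 1.10, and Cux2, a factor of the female liver, at 8.93 and 5.72 against 1.90 and 1.27. Both were picked from the lists of 14 male-biased and 17 female-biased genes, and other listed genes did not follow them. The female-biased Cyp2b9 was at 208 and 110 against 260 and 237, and Sult2a1 at 29.1 and 16.5 against 65.7 and 191. The male-biased Cyp2d9 was at 60.9 against 49.3 in WT and 32.0 against 61.6 in SunTag. These values were noticed in the data and not tested.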
